A study of Mus musculus with 4 samples.

Results

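Fatty acid oxidation and peroxisome biogenesis were followed through 34 mouse genes, chosen by name as the mitochondrial and peroxisomal β-oxidation enzymes, the peroxins (Pex genes) and the coactivator gene Ppargc1a. All 34 were among the 16051 genes listed. They comprised 17 mitochondrial enzymes, 5 peroxisomal enzymes and transporters, 11 Pex genes and Ppargc1a. The cells were 3T3-L1, a mouse embryonic fibroblast line of NIH SWISS origin that can be driven to become adipocytes. Differentiated cultures received the antipsychotic risperidone at 100 µM for 48 h or the control treatment, given as DMSO vehicle in the study's methods and as untreated in the sample labels. Each group had 2 RNA-seq libraries, here control 1 and 2 and risperidone 1 and 2, and each library was RNA pooled from 3 cultures. The p-values below therefore measure the spread between pooled libraries of 1 cell line.

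Long-chain fatty acids enter mitochondria as carnitine esters, made by carnitine palmitoyltransferase 1 at the outer membrane and turned back into acyl-CoA by carnitine palmitoyltransferase 2 at the inner membrane. Each round of β-oxidation then runs through an acyl-CoA dehydrogenase, an enoyl-CoA hydratase, a hydroxyacyl-CoA dehydrogenase and a thiolase, and electrons from the dehydrogenase leave through electron transfer flavoprotein. Peroxisomes shorten very long and branched chains with an oxidase in place of the dehydrogenase, so hydrogen peroxide is formed and catalase removes it. Peroxins build these organelles: they assemble the membrane, carry enzymes in from the cytosol, recycle the import receptors and promote division. In adipocytes most fatty acid is stored, and peroxisomes also take part in making ether lipids.

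Estimated counts summed to 15883712 to 16374119 per library, so a count of 0 allows up to 0.183 to 0.189 CPM (3 counts scaled to the library total, counting error only). Of the 16051 genes, 10243 had a mean of at least 1 FPKM and were tested, and 33 of the 34 members were among them. Levels are given as FPKM, fragments scaled to transcript length and to the library's total, divided by each library's TMM factor (a scale factor that sets most genes level between libraries), so that levels and tested fold changes share a scale. Risperidone 2 stood apart: 26 listed kidney marker genes, among them Kap, Ass1 and Miox, summed to 190, 167 and 187 counts in control 1, control 2 and risperidone 1 and to 5336 in risperidone 2, and 26 of 26 were highest there. The labels conflict in part, since they give an extraction from retinas beside the 3T3-L1 adipocytes. They also give embryo tissue, the origin of this line. The retina markers listed summed to at most 126 counts. The adipocyte label was met in part. Of 14 adipocyte markers, Fabp4, Lpl, Pparg, Pnpla2 and Lipe were expressed, while the defining genes Adipoq, Lep, Cidec, Cfd, Retn, Cebpa and Slc2a4 had at most 5 counts in any library and Plin1 had 9, 14, 1 and 1, and the fibroblast genes Col1a1, Col1a2 and Vim were abundant.

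Promoter sequences are shown for 6 members whose values are described below: Cpt1a, subunits of 2 complexes, and 2 Pex genes. RefSeq windows on GRCm38.p6, from 250 bases before to 50 bases after a transcription start, were given for 29 of the 34 members. The start used can lie inside the gene's span, as for Cpt1a, Eci2 and Scp2. Capitals mark matches, on either strand, to CCAAT, to the GC box GGGCGG or to the nuclear receptor half-site AGGTCA, and each sequence is written 5′ to 3′ on the gene's own strand. Cpt1a is the rate-limiting carnitine palmitoyltransferase, Etfa and Etfb are the subunits of electron transfer flavoprotein, Hadhb is a subunit of the trifunctional protein, and Pex6 and Pex11a had the largest rise and the largest fall among the 11 Pex genes.
Cpt1a (chr19:3323051-3323350, plus strand): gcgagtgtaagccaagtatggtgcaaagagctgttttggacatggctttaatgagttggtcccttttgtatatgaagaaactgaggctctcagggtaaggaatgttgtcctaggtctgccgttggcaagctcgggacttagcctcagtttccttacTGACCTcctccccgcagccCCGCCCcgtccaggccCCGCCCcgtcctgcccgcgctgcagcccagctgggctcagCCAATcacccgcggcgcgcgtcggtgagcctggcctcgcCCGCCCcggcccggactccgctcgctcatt
Etfa (chr9:55512194-55512493, minus strand): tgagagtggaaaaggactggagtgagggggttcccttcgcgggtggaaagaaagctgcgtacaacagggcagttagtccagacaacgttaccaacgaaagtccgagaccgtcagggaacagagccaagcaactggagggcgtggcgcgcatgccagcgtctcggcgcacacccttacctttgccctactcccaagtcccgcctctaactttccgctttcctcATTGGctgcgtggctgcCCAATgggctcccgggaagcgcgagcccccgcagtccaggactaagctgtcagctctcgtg
Etfb (chr7:43443822-43444121, plus strand): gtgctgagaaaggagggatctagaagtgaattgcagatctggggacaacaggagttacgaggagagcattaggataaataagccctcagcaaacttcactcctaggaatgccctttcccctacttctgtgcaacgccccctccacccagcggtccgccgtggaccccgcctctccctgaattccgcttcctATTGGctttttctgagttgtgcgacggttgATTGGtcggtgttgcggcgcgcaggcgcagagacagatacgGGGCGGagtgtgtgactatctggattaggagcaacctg
Hadhb (chr5:30155003-30155302, plus strand): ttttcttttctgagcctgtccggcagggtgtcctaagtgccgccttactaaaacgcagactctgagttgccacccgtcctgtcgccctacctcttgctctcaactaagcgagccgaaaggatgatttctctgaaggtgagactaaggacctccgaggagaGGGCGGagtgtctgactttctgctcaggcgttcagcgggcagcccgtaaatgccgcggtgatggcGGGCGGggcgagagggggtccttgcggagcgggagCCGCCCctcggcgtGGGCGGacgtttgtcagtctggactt
Pex6 (chr17:46711226-46711525, plus strand): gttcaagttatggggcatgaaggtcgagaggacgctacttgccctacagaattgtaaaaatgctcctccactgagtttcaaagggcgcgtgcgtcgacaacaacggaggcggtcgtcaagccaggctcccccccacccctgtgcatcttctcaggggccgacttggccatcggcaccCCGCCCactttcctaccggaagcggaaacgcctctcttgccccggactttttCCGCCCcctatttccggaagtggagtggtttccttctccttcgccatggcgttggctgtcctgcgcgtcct
Pex11a (chr7:79743082-79743381, minus strand): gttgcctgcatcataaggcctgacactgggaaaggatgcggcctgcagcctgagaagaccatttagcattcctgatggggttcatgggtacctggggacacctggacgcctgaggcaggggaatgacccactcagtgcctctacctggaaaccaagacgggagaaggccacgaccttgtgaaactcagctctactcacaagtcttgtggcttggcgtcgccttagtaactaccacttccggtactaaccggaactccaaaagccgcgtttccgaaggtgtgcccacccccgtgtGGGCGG

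The GC box was present in 23 of the 29 members' windows, against 35.7% of 32851 windows of the same length. CCAAT was present in 11 of 29, against 37.4% of all windows. The half-site AGGTCA was present in Acadm, Acadvl, Cat, Cpt1a, Echs1 and Scp2, against 16.3% of windows. Its direct repeat with 1 free base between the half-sites (0.04% of windows) and the oestrogen-related receptor element TCAAGGTCA (0.423%), both of which contain the half-site, had no match in the 29 members, nor had the E-box CACGTG (7.15%). The cyclic AMP response element TGACGTCA (1.79% of windows) was found in Pex13 alone among the 29. Hadha and Hadhb lie head to head on opposite strands with 272 bases between them, and their windows share 228 of 300 bases. Members were counted as genes with a match in any of their windows, while the percentages count windows of all genes, expressed or not. The units differ, and no enrichment was tested. A match is a string of letters and says nothing of factor binding.

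Across the 33 tested members, 8 were higher and 7 were lower after risperidone at an adjusted p under 0.05 (edgeR quasi-likelihood test), and 18 did not pass. That is 45.5% called, while 64.3% of all tested genes were called, 32.1% higher and 32.2% lower. No member reached an absolute log2 fold change of 1, which 6.52% of all tested genes passed with an adjusted p under 0.05. The members' median log2 fold change was -0.0078 and their median absolute log2 fold change 0.15, beside 0.00044 and 0.30 over all tested genes. The groups did not overlap for 24 of 33 members, against 82.5% of all tested genes. The 3 classes differed in their counts: 7 of 17 mitochondrial enzymes, 1 of 5 peroxisomal enzymes and 7 of 11 Pex genes were called. The difference between the classes was not tested. In these pooled libraries, less of an mRNA per cell and fewer cells that express it cannot be told apart. Without risperidone 2, 8 members were higher and 8 lower, against 32.3% and 32.7% of all genes in that fit.

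**Figure D1:**
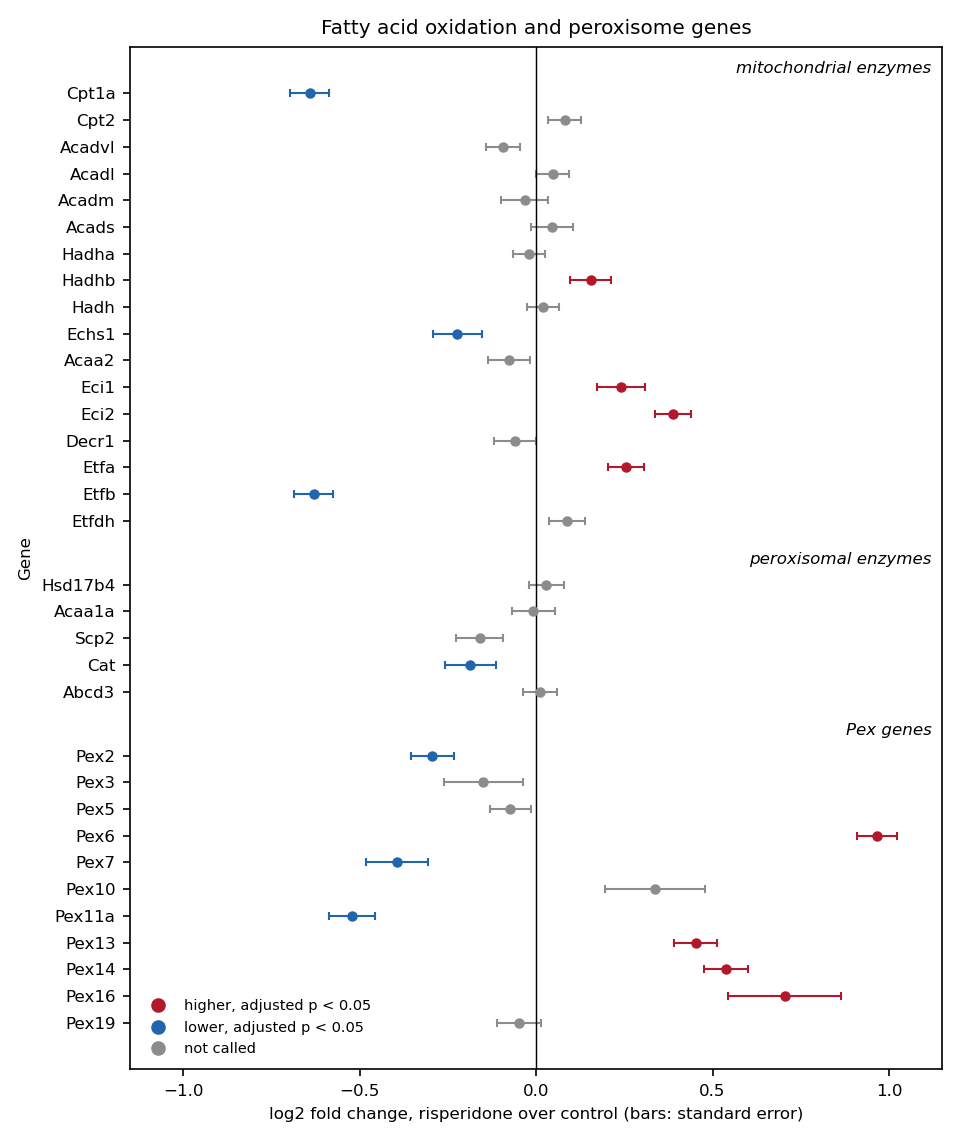
Log2 fold change of each tested member, risperidone over control (points), with its standard error (bars), by class; n = 2 libraries per group. Most mitochondrial and peroxisomal enzymes lie near 0, Cpt1a and Etfb lie near -0.64 and -0.63, and the Pex genes spread from -0.52 (Pex11a) to 0.97 (Pex6).

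In the carnitine shuttle, the genes of the entry step and of the translocase fell, and that of the inner enzyme did not pass the test. Cpt1a, which makes long-chain acylcarnitines at the outer mitochondrial membrane, had TMM-scaled FPKM of 83.8 and 76.3 in the control libraries and 50.1 and 52.2 in the risperidone libraries, so the groups did not overlap. Its log2 fold change was -0.64 ± 0.055 (SE, n = 2 per group), with an adjusted p of 2.74e-06. Cpt2, its partner at the inner membrane, stood at 47.6 and 47.7 in controls and at 50.6 and 50.1 after risperidone (log2 fold change 0.081 ± 0.047, adjusted p = 0.148). The FPKM ratio of Cpt1a to Cpt2 was 1.76 and 1.60 in controls and 0.990 and 1.04 in risperidone libraries. With 2 libraries against 2, no exact permutation test of a ratio can go below p = 0.333, so the ratios here carry no test. Slc25a20, the translocase that carries acylcarnitine across the inner membrane and a gene outside the 34, also fell, from 15.3 and 14.6 to 9.17 and 10.4 (log2 fold change -0.61 ± 0.091, adjusted p = 0.000139). Cpt1a and Slc25a20 were called lower in every other fit run. Cpt1c, an isoform best known from brain and named after its values were seen, was at 24.7 and 24.5 in controls and at 26.4 and 23.1 after risperidone (log2 fold change 0.013 ± 0.072, adjusted p = 0.884).

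Markers of the adipocyte and fibroblast states moved in both directions, with 4 of 6 and 7 of 9 tested markers called, against 64.3% of all tested genes. Of 14 adipocyte markers, 6 were tested and 8, Plin1 among them, were too low. Of the 6, 3 fell, namely Fabp4 (log2 fold change -1.09), the hormone-sensitive lipase gene Lipe (-1.12) and the lipoprotein lipase gene Lpl (-0.24), 1 rose, Pnpla2 (0.23), and 2 did not pass. Of 11 preadipocyte and fibroblast markers, 9 were tested, 4 were called higher, namely Dlk1 (1.52), Thy1 (1.05), Col1a1 (0.99) and Ly6a (1.20), and 3 lower, namely Col3a1 (-0.96), Pdgfrb (-0.50) and Col1a2 (-0.16). Ly6a was not called without risperidone 2 (0.53, adjusted p = 0.182), and Col1a2 was not called without control 1 or without control 2 (adjusted p = 0.216 and 0.0612). The deposited FPKM, not divided by the TMM factor, summed over the adipocyte list to 441 and 498 in controls and 332 and 342 after risperidone, and over the other list to 2233 and 2175 against 2366 and 2368. The part of these markers in the changes of the members was not tested.

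The 4 acyl-CoA dehydrogenases, which take the first electrons from fatty acids of very long, long, medium and short chains, did not pass the test. Acadl, for long chains, was the most abundant at 103 and 107 in controls and 108 and 109 in risperidone libraries. Acadvl, for very long chains, was at 66.7 and 67.9 in controls and 64.9 and 61.0 after risperidone, a log2 fold change of -0.093 ± 0.049 (adjusted p = 0.115). Its groups did not overlap, and it was called lower in 8 of 16 alternative fits, among them the fit without risperidone 1 (-0.14, adjusted p = 0.0366); without risperidone 2 it was at -0.051 (adjusted p = 0.404). Acadm, for medium chains, ranged from 39.7 to 44.7 over the 4 libraries and Acads, for short chains, stayed close to its mean of 20.1 in controls (20.7 after risperidone), with overlapping groups in both. The log2 fold changes of the 4 genes lay between -0.093 and 0.047, with standard errors of 0.047 to 0.067.

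Electron transfer flavoprotein showed opposite changes in its subunits. Etfb, the β subunit, fell from 130.5 and 130.9 to 84.5 and 83.3 (log2 fold change -0.63 ± 0.055, adjusted p = 2.92e-06). Etfa, the α subunit, rose from 76.5 and 77.9 to 95.3 and 88.5 (log2 fold change 0.26 ± 0.051, adjusted p = 0.00120). The groups did not overlap for either gene, and the lower risperidone value of Etfb and of Etfa came from the same library, risperidone 2. The FPKM ratio of Etfa to Etfb went from 0.587 and 0.595 in controls to 1.13 and 1.06 in risperidone libraries, so that the β subunit mRNA was the more abundant in both controls and the less abundant in both risperidone libraries. The proteins pair in equal parts in the flavoprotein. Etfdh, which passes the electrons on to ubiquinone, was at 45.3 and 47.2 in controls and at 48.2 and 49.9 after risperidone (log2 fold change 0.088 ± 0.051, adjusted p = 0.150). On TPM, where the median of all tested genes was -0.22, the log2 fold change of Etfa was 0.013 and that of Etfb -0.87; Etfa was then not called.

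The trifunctional protein, which joins the last steps for long chains, had 1 subunit called. Hadhb, its thiolase subunit, was at 39.4 and 40.8 in controls and at 45.1 and 44.1 in risperidone libraries (log2 fold change 0.15 ± 0.057, adjusted p = 0.0344). Hadha, its hydratase and dehydrogenase subunit, ranged from 48.4 to 49.9 over the 4 libraries (log2 fold change -0.021 ± 0.045, adjusted p = 0.701). The FPKM ratio of Hadha to Hadhb was 1.27 and 1.21 in controls and 1.09 and 1.10 after risperidone, for genes that share the promoter stretch described above. Hadhb was called in 6 of 16 alternative fits: it did not pass without control 1, without control 2 or without risperidone 1 (highest adjusted p = 0.288), under either other filter, with library size scaling, in DESeq2 or in limma, and its log2 fold change was -0.084 on TPM.

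Of the enzymes of the later steps for shorter chains, 1 of 3 was called, against 64.3% of all tested genes. Echs1, the short-chain enoyl-CoA hydratase, fell from 37.9 and 39.3 to 31.2 and 34.7 (log2 fold change -0.22 ± 0.071, adjusted p = 0.0171). It was not called without risperidone 1 (log2 fold change -0.14, adjusted p = 0.0868), without the expression filter or in DESeq2. Its gene overlaps Paox on the other strand by 687 bases, and Paox rose (log2 fold change 0.94, adjusted p = 6.01e-05); strand use in the counting is not given in the sources used here. Hadh, the short-chain hydroxyacyl-CoA dehydrogenase, ranged from 92.8 to 96.3 (log2 fold change 0.019 ± 0.045). Acaa2, the mitochondrial thiolase, was at 56.1 and 57.6 in controls and at 52.9 and 54.7 after risperidone (log2 fold change -0.076 ± 0.060). Neither Hadh nor Acaa2 passed the test (adjusted p = 0.736 and 0.285). The groups of Acaa2 did not overlap, and it was called lower in 5 of 16 alternative fits.

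The auxiliary enzymes for unsaturated chains included both isomerases among the genes that rose. Eci2, an enoyl-CoA isomerase found in mitochondria and peroxisomes, rose from 115 and 116 to 152 and 140 (log2 fold change 0.39 ± 0.051, adjusted p = 5.79e-05). Eci1, the mitochondrial isomerase, rose from 42.9 and 43.0 to 53.4 and 47.7 (log2 fold change 0.24 ± 0.067, adjusted p = 0.00874). For both genes risperidone 1 was the highest library and the groups did not overlap. Eci1 was called in 8 of 16 alternative fits: it lost its call without risperidone 1 (log2 fold change 0.16, adjusted p = 0.0613), with library size scaling or length offsets, in DESeq2 and in limma, and was at -0.0051 on TPM. Decr1, the dienoyl-CoA reductase, was at 29.0 and 27.4 in controls and at 26.9 and 27.2 after risperidone (log2 fold change -0.060 ± 0.059, adjusted p = 0.397). The groups of Decr1 did not overlap, and it was called lower in 4 of 16 alternative fits.

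Summed over the 17 mitochondrial enzymes, TMM-scaled FPKM was 1078 and 1086 in controls and 1070 and 1046 in risperidone libraries, a ratio of 0.978 ± 0.0138 (SD). The deposited FPKM gave 1111, 1124, 1031 and 1018, a ratio of 0.917, and TPM gave 0.830. The class had 4 genes higher (Hadhb, Eci1, Eci2 and Etfa) and 3 lower (Cpt1a, Echs1 and Etfb), 41.2% called against 64.3% of all tested genes, with a median log2 fold change of 0.019. Its count of higher genes was 2 without risperidone 1, and with library size scaling, DESeq2 or limma on log2 FPKM. Its count of lower genes was 7 with library size scaling, 6 in limma on log2(FPKM + 1) and 13 on TPM. Over all tested genes those fits called 2500 higher and 4092 lower, 2420 higher and 3975 lower, and 1536 higher and 5292 lower, beside 3287 higher and 3303 lower in the reported fit.

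**Figure D2:**
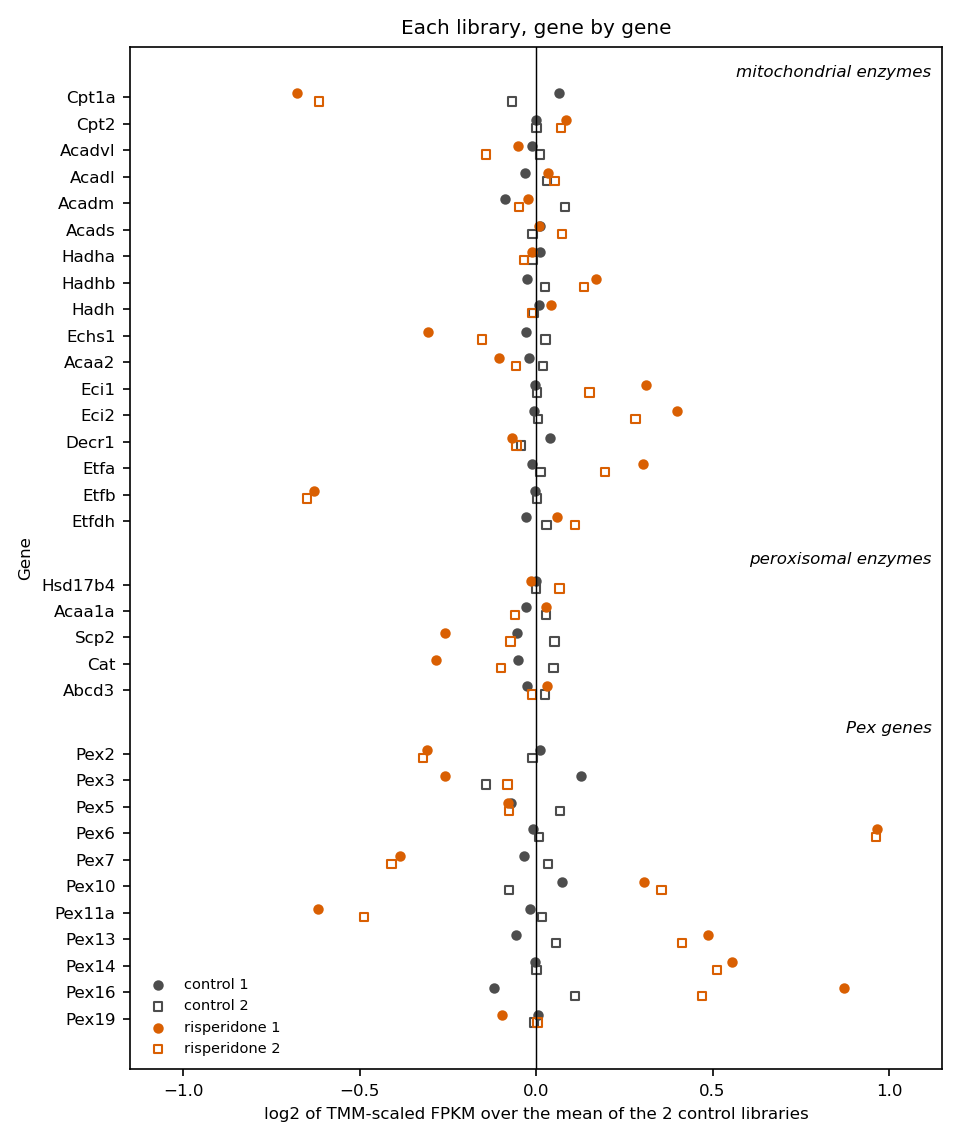
Each library's TMM-scaled FPKM of each tested member, as log2 over the mean of the 2 control libraries; grey symbols are controls, orange symbols are risperidone libraries, filled circles are replicate 1 and open squares are replicate 2. The risperidone libraries lie together and away from the controls for Cpt1a, Etfb, Pex6, Pex13 and Pex14, while the 2 risperidone libraries of Pex16 lie apart.

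Of the 5 peroxisomal enzymes, 1 was called (20%, against 64.3% of all tested genes), and 2 were called lower with library size scaling, length offsets or limma on log2 FPKM and 5 on TPM. Cat, the catalase that breaks down hydrogen peroxide, was at 33.8 and 36.3 in controls and at 28.8 and 32.7 in risperidone libraries (log2 fold change -0.19 ± 0.072, adjusted p = 0.0419). The groups did not overlap, and the call was lost without control 2 (log2 fold change -0.13, adjusted p = 0.268), without risperidone 1 (-0.095, adjusted p = 0.203), without the expression filter and in DESeq2. Without risperidone 2 the log2 fold change was -0.28 (adjusted p = 0.00139). Scp2, the sterol carrier protein and branched-chain thiolase, was at 45.0 and 48.4 in controls and at 39.0 and 44.4 after risperidone (log2 fold change -0.16 ± 0.066, adjusted p = 0.0518). It was called lower under 10 of 16 alternatives. Its lowest library was risperidone 1, and its log2 fold change was -0.068 without that library (adjusted p = 0.333) and -0.26 without risperidone 2 (adjusted p = 0.00186). Hsd17b4, the bifunctional enzyme for branched and very long chains, ranged from 40.6 to 42.9 over the 4 libraries (log2 fold change 0.029 ± 0.050). Acaa1a, the peroxisomal thiolase, ranged from 46.5 to 49.4 (log2 fold change -0.0078 ± 0.060), with the limit that reads can be split with its near-identical copy Acaa1b. Abcd3, the transporter that brings acyl-CoA into the peroxisome, ranged from 34.4 to 35.8 (log2 fold change 0.011 ± 0.048). For these last 3 genes the groups overlapped and the adjusted p was 0.625, 0.919 and 0.850. The summed TMM-scaled FPKM of the 5 genes was 201.7 and 210.9 in controls and 193.7 and 201.3 after risperidone, a ratio of 0.957 ± 0.0325 (SD).

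Ehhadh (a bifunctional enzyme of peroxisomal β-oxidation) and Acaa1b, which are abundant in kidney and liver and are outside the 34, were near 0 in 3 libraries and not in the fourth. Ehhadh had 2, 1, 0 and 77 estimated counts in control 1, control 2, risperidone 1 and risperidone 2, and Acaa1b had 39.4 in risperidone 2 and at most 1.09 elsewhere. Ppara, the nuclear receptor for fatty acids, had 35 counts in risperidone 2 and at most 1 elsewhere. Acot4, Pipox, Dao and Hao2, named after their values were seen, had 11, 62, 41 and 79 counts there and at most 3 elsewhere. These 7 genes were below the expression filter and have no tested value. They share their library with the kidney markers, and whether these counts have the same source as the markers was not tested. Of the members, 32 of the 33 tested differed by less than 0.2 on the log2 scale between the 2 risperidone libraries. The share of all tested genes within that limit was not taken, so the count has no background to be read against. In risperidone 2, 15 of 33 members were the higher, against 47.7% of all tested genes. Whether members hold reads from the source of the kidney markers was not tested. The untested member Ppargc1a was higher in risperidone 2 by 0.47 on the log2 scale.

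**Figure D3:**
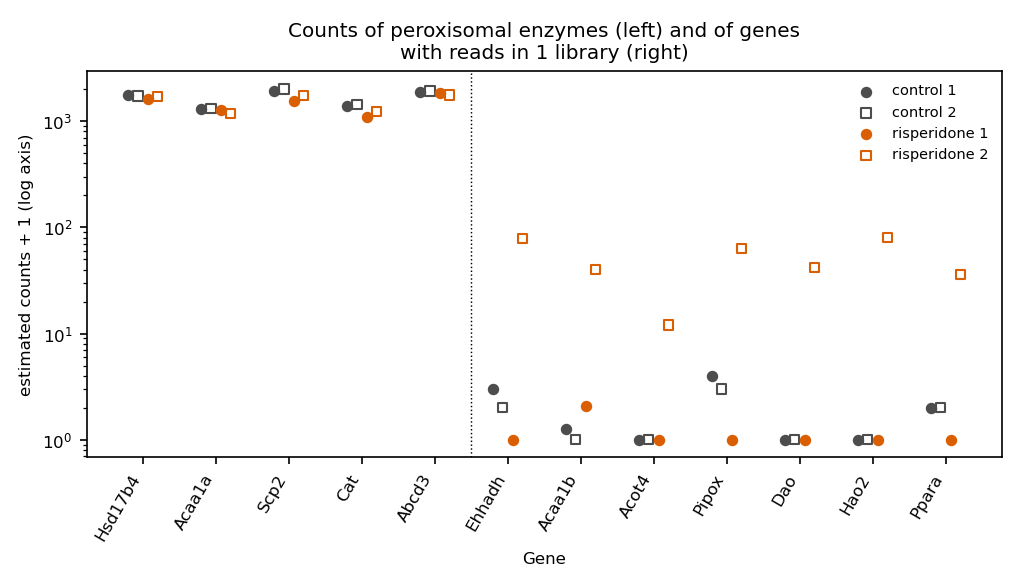
Estimated counts plus 1 (log axis) in each of the 4 libraries for the 5 peroxisomal enzymes (left of the dotted line) and for 7 peroxisomal and regulatory genes with reads in risperidone 2 (right). The 5 enzymes sit far above the others in every library, while the 7 genes have 11 to 79 counts in risperidone 2 and at most 3 in the others.

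The median absolute log2 fold change of the Pex genes was 0.39, beside 0.088 for the mitochondrial and 0.029 for the peroxisomal enzymes and 0.30 for all tested genes. This difference was not tested. The Pex genes also had a lower median level, 25.5 in deposited FPKM beside 49.2 for the mitochondrial and 41.4 for the peroxisomal enzymes. Of 11, 4 rose (Pex6, Pex16, Pex14 and Pex13), 3 fell (Pex11a, Pex7 and Pex2) and 4 did not pass (Pex3, Pex5, Pex10 and Pex19), so 63.6% were called against 64.3% of all tested genes. The groups did not overlap for 9 of 11, against 82.5% of all tested genes. The median log2 fold change was -0.048, so the direction was mixed. Without risperidone 2 the counts were again 4 and 3.

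The docking complex on the peroxisomal membrane, which takes up the loaded import receptors, had both of its genes higher. Pex14 rose from 25.5 and 25.6 to 37.6 and 36.5 (log2 fold change 0.54 ± 0.063, adjusted p = 2.50e-05). Pex13 rose from 17.1 and 18.5 to 25.0 and 23.7 (log2 fold change 0.45 ± 0.061, adjusted p = 7.29e-05). The groups did not overlap for either, and the FPKM ratio of Pex14 to Pex13 was 1.49 and 1.38 in controls and 1.505 and 1.536 after risperidone. Pex13 overlaps Pus10 on the other strand by 7293 bases; Pus10 had a log2 fold change of -0.12 and was not called (adjusted p = 0.239).

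Of the import receptors, which dock there, 1 fell and 1 did not pass. Pex7, the receptor for the few enzymes with an N-terminal signal, such as the thiolases, fell from 12.0 and 12.6 to 9.40 and 9.26 (log2 fold change -0.39 ± 0.088, adjusted p = 0.00243). Without control 2 its adjusted p was 0.0579. Pex5, the receptor for the C-terminal signal carried by most matrix enzymes, was at 31.1 and 34.2 in controls and at 30.9 and 30.9 after risperidone (log2 fold change -0.073 ± 0.058, adjusted p = 0.288). The groups of Pex5 did not overlap, and it was called lower in 4 of 16 alternative fits. The FPKM ratio of Pex5 to Pex7 was 2.59 and 2.72 in controls and 3.28 and 3.34 in risperidone libraries.

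Pex6, an ATPase of the complex that pulls used receptors back out of the membrane, and Pex26, its membrane anchor and a gene outside the 34, moved in opposite directions. Pex6 had the largest change of all members, from 17.4 and 17.6 in controls to 34.3 and 34.2 after risperidone (log2 fold change 0.97 ± 0.057, adjusted p = 1.93e-07). Pex26 fell from 5.54 and 5.06 to 3.14 and 3.08 (log2 fold change -0.76 ± 0.10, adjusted p = 7.12e-05). The FPKM ratio of Pex6 to Pex26 was 3.15 and 3.48 in controls and 10.9 and 11.1 in risperidone libraries.

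Pex2 and Pex10 are RING peroxins, ubiquitin ligases that mark receptors for recycling, and 1 of these passed the test. Pex2 fell from 37.0 and 36.5 to 29.6 and 29.4 (log2 fold change -0.29 ± 0.061, adjusted p = 0.00142). Pex10 was at 5.49 and 4.95 in controls and 6.45 and 6.68 after risperidone; its groups did not overlap, but its log2 fold change of 0.34 ± 0.14 had an adjusted p of 0.0559. The FPKM ratio of Pex10 to Pex2 was 0.148 and 0.136 in controls and 0.218 and 0.227 in risperidone libraries.

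Of the peroxins that assemble the membrane, Pex16 rose and the others did not pass. Pex16, a membrane protein that recruits Pex3, was at 6.29 and 7.38 in controls and at 12.5 and 9.47 after risperidone (log2 fold change 0.70 ± 0.16, adjusted p = 0.00269). It was the 1 tested member whose risperidone libraries lay more than 0.2 apart on the log2 scale, and its log2 fold change ran from 0.50 to 0.88 when each library was left out in turn. Pex3, the membrane docking factor for Pex19, was at 10.3 and 8.52 in controls and at 7.86 and 8.88 after risperidone (log2 fold change -0.15 ± 0.11, adjusted p = 0.261). Pex19, the cytosolic chaperone of peroxisomal membrane proteins, ranged from 24.2 to 26.0 (log2 fold change -0.048 ± 0.062, adjusted p = 0.510).

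Pex11a and Pex11g, of the Pex11 family that elongates the membrane before division, were lower. Pex11a, the inducible member, fell from 35.6 and 36.4 to 23.4 and 25.7 (log2 fold change -0.52 ± 0.066, adjusted p = 4.38e-05). Pex11g, outside the 34, fell from 6.70 and 5.05 to 3.68 and 3.73 (log2 fold change -0.81 ± 0.17, adjusted p = 0.00142). Pex11a spans chr7:79735957-79743131 in GRCm38.p6, with 3052 bases between it and Plin1, whose counts of 9, 14, 1 and 1 are given above.

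**Figure D4:**
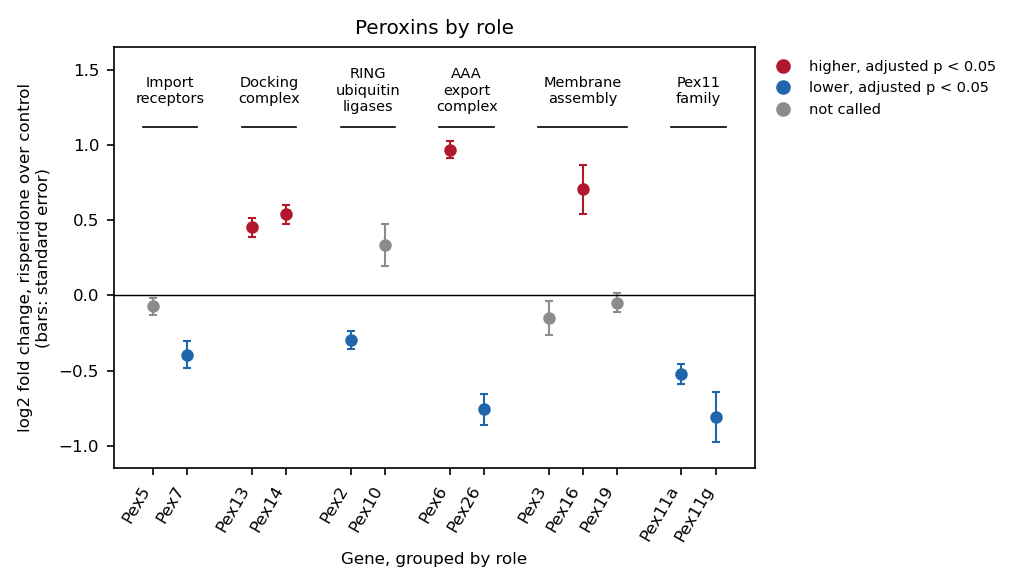
Log2 fold change, risperidone over control (points), with its standard error (bars), of 13 peroxins grouped by role; n = 2 libraries per group, and Pex26 and Pex11g are outside the 34 genes. Pex13 and Pex14 lie together near 0.5, Pex6 at 0.97 and Pex26 at -0.76 lie apart within the export complex, and Pex11a and Pex11g lie below 0.

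Ppargc1a, the coactivator of mitochondrial and fatty acid oxidation genes known as PGC-1α, was too low to be tested, with a mean of 0.46 FPKM. It had 29 and 38 counts in controls and 48 and 65 after risperidone, so the groups did not overlap. Without the expression filter its log2 fold change was 0.84 and its adjusted p 0.0588.

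Other genes of the pathway were taken from 5 lists that hold 128 genes, of which 106 were tested. Of these, 44 were higher and 34 lower (73.6% called, against 64.3% of all tested genes), with a median log2 fold change of 0.098. The median was 0.059 without risperidone 2, and -0.13 on TPM, where that of all tested genes was -0.22. In fatty acid activation and the carnitine shuttle, 6 of 16 tested genes were higher and 5 lower. Beside Slc27a2, the largest changes there were in Fabp4, a fatty acid carrier of adipocytes, which fell from 126 and 163 to 61.8 and 73.1 (log2 fold change -1.09, adjusted p = 1.64e-05), in Fabp5, a related carrier, which rose (0.69, adjusted p = 1.15e-05), and in Acsl3, an acyl-CoA synthetase, which rose (0.62, adjusted p = 9.20e-06). Slc27a2, a very long chain acyl-CoA synthetase of kidney and liver, was called higher (log2 fold change 6.08, adjusted p = 0.00867) on 1 library alone, with 5, 2, 0 and 459 counts, and was not called without risperidone 2.

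Among 26 other tested mitochondrial acyl-CoA enzymes, 12 were higher and 9 lower (80.8% called, against 64.3% of all tested genes). Acot13, an acyl-CoA thioesterase, rose from 50.3 and 43.6 to 85.6 and 81.1 (log2 fold change 0.84, adjusted p = 2.48e-06), and Nudt8, a hydrolase of the Nudix family, was called higher (0.48, adjusted p = 0.0219) and kept its call in 8 of 16 alternative fits. Acad8, which acts in valine breakdown, fell (log2 fold change -0.67, adjusted p = 0.000168), and so did Echdc2 (-0.60, adjusted p = 0.00108). Among 26 other tested peroxisomal genes, 13 were higher and 6 lower (73.1% called), Slc27a2 included. Idh1, the NADP-dependent isocitrate dehydrogenase of cytosol and peroxisome, fell from 424 and 416 to 142 and 155 (log2 fold change -1.496 ± 0.055, adjusted p = 1.13e-08). Mgst1, a microsomal glutathione transferase also found on peroxisomes and mitochondria, fell (log2 fold change -0.93, adjusted p = 1.02e-07), and Abcd2, a very long chain acyl-CoA transporter, rose from a low level (0.72, adjusted p = 0.00249). No member changed as much as Idh1.

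Among 17 other peroxins and division genes, 6 were higher and 5 lower (64.7% called, against 64.3% of all tested genes). Beside Pex26 and Pex11g, the largest changes were in Zfand6, which rose (log2 fold change 0.53, adjusted p = 8.96e-05), and Usp30, a deubiquitinase of mitochondria and peroxisomes, which rose (0.44, adjusted p = 0.000106). Without risperidone 2 the counts were 8 and 4, against 65.0% of all tested genes called in that fit. Among 23 regulators of fatty acid oxidation, 9 were higher and 9 lower (78.3% called). Lpin1, a phosphatidate phosphatase and coactivator, rose from 14.1 and 15.4 to 30.4 and 29.1 (log2 fold change 1.01 ± 0.051, adjusted p = 7.79e-08). Prkaa2, a catalytic subunit of AMP-activated kinase, and Rxrb, a partner of the fatty acid receptors, rose (0.71 and 0.58, adjusted p = 0.000261 and 1.96e-05), while Rxra, the more abundant partner of the same receptors and named after its values were seen, fell from 56.4 and 58.6 to 40.3 and 40.9 (-0.50, adjusted p = 4.45e-06). The nuclear receptor coactivator Ncoa1 also fell (-0.68, adjusted p = 8.45e-06). Pparg, the receptor that drives adipocyte differentiation, was at 12.1 and 11.0 in controls and at 13.3 and 12.8 after risperidone (log2 fold change 0.12 ± 0.079, adjusted p = 0.194).

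The summed TMM-scaled FPKM of the 11 Pex genes was 224 and 228 in controls and 241 and 241 after risperidone, a ratio of 1.07. The deposited FPKM gave a ratio of 0.9996 and TPM gave 0.905, so the direction depended on the scale.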

How the data were processed

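Differentiated 3T3-L1 cells were profiled by mRNA-seq in 2 control and 2 risperidone libraries. Estimated counts, FPKM and TPM per gene were deposited by the authors; the submitters' processing notes name Bowtie2, RSEM, DESeq2 and GRCm38.p6, and the annotation and strand setting are not given in the sources used here. The deposited averages per group were not used. Estimated counts were rounded and fitted with edgeR 4.0.16 (quasi-likelihood F-test, TMM scaling, all 4 libraries, two-sided), for the 10243 genes whose FPKM averaged 1 or more. P-values were adjusted by Benjamini-Hochberg over all tested genes, with a threshold of 0.05. Standard errors are the log2 fold change over the square root of F. The fit code was run on simulated counts in which few genes changed, unlike these data. That run says nothing of the scaling or of small changes here. Alternatives were other filters, scalings, offsets and blocks, DESeq2 1.42.0, limma 3.58.1 on log2(FPKM or TPM + a pseudocount of 1 or 0.1), and each library left out.

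The members and gene lists were chosen with earlier results of these data known. Every member is named; of each other pathway list, up to 4 called genes with the largest change, and a few fixed genes that complete a step or complex of the members (Ehhadh, Acaa1b, Slc25a20, Pex26, Ppara and Pparg; others are not reported here); of each marker list, the 3 most abundant genes. The other adipocyte and fibroblast genes were named after their values were seen. Of the lists that check the labels, 15 liver and 11 retina markers, of which 12 and 8 were in the table, summed to at most 302 and 126 counts in any library, the former in risperidone 2. Replicates differed by more than counting noise in both groups (12.4% and 23.5% of genes at p under 0.05 in a chi-square test).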

Additional observations from a re-analysis of the deposited data

How the results depend on the processing

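Of the members' fold changes under all alternative fits, 419 kept their direction and call. Another 39 gained a call and 26 lost it without a change of sign, and 44 changed sign. Of the sign changes, 9 were on TPM (limma on log2(TPM + 1)), where the median over all tested genes was -0.22: Cpt2 -0.16, Acadl -0.19, Acads -0.19, Hadhb -0.084, Hadh -0.22, Eci1 -0.0051, Etfdh -0.15, Hsd17b4 -0.21 and Abcd3 -0.22, all of them at or above that median. Hadhb and Eci1 lost their call on TPM. The other members with a sign change there, not called in the reported fit, were called lower on TPM. The remaining 35 sign changes were in members called neither in the reported fit nor in the alternative. Their reported log2 fold changes were at most 0.088 in size. With scaling by library size only, limma on log2(FPKM + 1) and limma on log2(FPKM + 0.1), in that order, these were Cpt2 (-0.012, -0.015 and -0.015), Acadl (-0.046, -0.049 and -0.050), Acads (-0.048, -0.050 and -0.052), Hadh (-0.075, -0.078 and -0.079), Etfdh (-0.0052, -0.0083 and -0.0085), Hsd17b4 (-0.064, -0.066 and -0.067) and Abcd3 (-0.082, -0.081 and -0.083). With the length offset they were Hadha (0.047) and Hadh (-0.023), with length and GC offsets Hadha (0.050), Hadh (-0.018) and Acads (-0.027), and with a minimum mean of 5 FPKM Hadh (-0.0062) and Abcd3 (-0.013). With each library left out, Acadm ran from -0.12 to 0.056, Hadh from -0.0052 to 0.042, Hsd17b4 from -0.012 to 0.071, Acaa1a from -0.051 to 0.035 and Abcd3 from -0.016 to 0.039. On TPM 1536 genes were higher and 5292 lower, and of the members 4 and 24: 0 and 13 mitochondrial enzymes, 5 peroxisomal enzymes lower and 6 Pex genes lower; the medians were -0.22 (mitochondrial), -0.25 (peroxisomal), -0.28 (Pex) and -0.25 (all members). When calls also needed a log2 fold change of 1 or more in size, 267 genes were higher, 401 lower, and 0 members of any class were called.

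With scaling by library size only, limma on log2(FPKM + 1) and limma on log2(FPKM + 0.1), respectively, 13, 12 and 12 members were lower, 7, 6 and 6 of them mitochondrial; mitochondrial enzymes higher were 2 each and peroxisomal enzymes lower 2 each. The medians there were -0.075, -0.078 and -0.079 (mitochondrial), -0.10, -0.11 and -0.11 (peroxisomal), -0.14, -0.13 and -0.14 (Pex) and -0.10, -0.11 and -0.11 (all members). With a length offset, and with length and GC offsets (the latter chosen after seeing the data), 2 peroxisomal enzymes were lower each, with peroxisomal medians of -0.051 and -0.081 and medians over all members of -0.023 and -0.027; length and GC offsets gave 5 mitochondrial enzymes lower and a mitochondrial median of -0.018. With a minimum mean of 5 FPKM, the mitochondrial median was -0.0062, that of all members -0.033, and 2 peroxisomal enzymes were lower. Without a filter, the median of all members was -0.00016 and 0 peroxisomal enzymes were lower. DESeq2 called 2 mitochondrial enzymes higher and 0 peroxisomal enzymes lower. The causes were not tested.

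Leaving out each library in turn, which assumes that the lone library left varies like the other group, gave 2 to 4 mitochondrial enzymes higher, 0 to 2 peroxisomal enzymes lower, and medians from -0.0052 to 0.036 (mitochondrial), from -0.051 to 0.022 (peroxisomal) and from -0.016 to 0.022 (all members). The low counts came without risperidone 1, and for the peroxisomal enzymes also without control 2. The replicate numbers were not shown to pair the libraries (correlation of deviations -0.105). With them as a replicate block 2 peroxisomal enzymes were lower (Cat and Scp2), Pex10 was higher (adjusted p = 0.0481), 3292 genes were higher and 3321 lower. The crossed pairing, chosen after seeing the data, gave 2 peroxisomal enzymes lower, 3474 genes higher and 3519 lower. Summed TPM gave risperidone-to-control ratios of 0.830 (mitochondrial), 0.813 (peroxisomal) and 0.905 (Pex), and summed FPKM over the TMM factor gave 0.978, 0.957 and 1.07, against 0.917, 0.897 and 0.9996 on deposited FPKM.

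Log2 fold change ran against effective transcript length (Spearman's rho -0.168 across 10243 genes, which are not independent). With 2 pooled libraries per group, members with small changes, such as Hadhb and Cat, lie at the edge of what the spread allows, and Pex10 and Pex16, below 13 in TMM-scaled FPKM, had the largest standard errors.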
